A study of Mus musculus with 2 samples.

Results

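Glutamate receptors are the proteins through which most excitatory synapses of the brain signal. The gene set described here holds 30 genes: the 4 AMPA receptor subunits, 7 NMDA receptor subunits, 5 kainate receptor subunits, the delta receptor gene Grid1, 7 metabotropic receptors and 6 transmembrane AMPA receptor regulatory proteins (TARPs). The members were chosen by gene symbol, with no measured value in the rule, and all 30 were found among the 55536 genes of the deposited tables, of which 22028 were protein coding. The symbols and coordinates are those of GENCODE M21 on the mouse build mm10.

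The RNA came from healthy B6NCrl mouse embryos, male and female together, whose hindbrain was dissected at embryonic day 12.5, a stage at which dividing progenitors of the ventricular zone lie beside newly formed neurons. The series holds 1 group of 2 biological replicates, pool 1 with tissue from 120 embryos and pool 2 with tissue from 88. Each pool is an average over many animals and over every cell type of the tissue, so fewer cells of a type and less RNA per cell cannot be told apart. No treated, mutant or later sample was used here, so there is no contrast to test, no p-value is given, and each value below is given per pool or as mean ± SD (n = 2).

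AMPA, kainate and NMDA receptors are tetrameric ion channels. AMPA receptors carry most of the fast synaptic current, NMDA receptors open when glutamate and a co-agonist are bound and the membrane is depolarised, and kainate receptors act on both sides of the synapse. Metabotropic receptors couple glutamate to G proteins, and TARPs bind AMPA receptors, bring them to the cell surface and slow their closing. In young neurons these receptors are present before synapses mature, and subunits and splice forms change as circuits form.

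With spike-in RNAs included, the library of pool 1 summed to 32547454 expected counts and that of pool 2 to 30559015. The 30 genes together took 14040 and 13520 of these, 0.0446% and 0.0462% of the counts on genes. An expected count is the estimated number of reads of a gene, and TPM is that number divided by the length of the transcripts and scaled to a fixed total, so TPM compares genes per length. All 7 hindbrain markers were at 5 TPM or more in both pools, led by Hoxd3 (53.9 and 64.1 TPM) and Hoxb2 (45.1 and 56.7 TPM). Of 6 forebrain genes only Lhx2 (24.2 and 23.8 TPM) reached 1 TPM in both pools. The pools differed in tissue that is not brain: 6 skeletal muscle markers summed to 34.0 TPM in pool 1 and 169 TPM in pool 2, and 6 markers of surface epithelium to 112 and 82.4 TPM. The sum of 12 markers of neurons was 1.05 times higher in pool 2, and that of 10 markers of radial glia was 0.921 times as high.

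Of the 30 members, 27 were at 1 TPM or more in both pools, against 61.8% of all protein-coding genes. All 4 AMPA subunits, all 5 kainate subunits, Grid1 and all 6 TARPs passed this level, with 5 of 7 NMDA subunits and 6 of 7 metabotropic receptors. The 3 members below 1 TPM in both pools were Grin2c, Grin3b and Grm6. Levels were modest: the median over all 30 members was 3.47 TPM, against 5.47 TPM over all protein-coding genes. Over the protein-coding genes at 1 TPM or more in both pools alone, the median was 21.9 TPM. In both pools 9 members reached 5 TPM. A mean of 5.00 TPM, that of Grm3, lay above 49.2% of all protein-coding genes. Gria2, at 45.5 ± 3.37 TPM, and Cacng4, at 28.2 ± 0.679 TPM, were the highest and lay apart from all other members, of which the next was Grik5 at 13.0 ± 0.396 TPM. Over all 30, 20 of 29 neighbouring pairs in the order of levels overlapped between the pools, so the order among members of similar level is not resolved. Members called separated below are those whose pool values did not cross. The deposited intervals of separated members can still overlap.

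**Figure D1:**
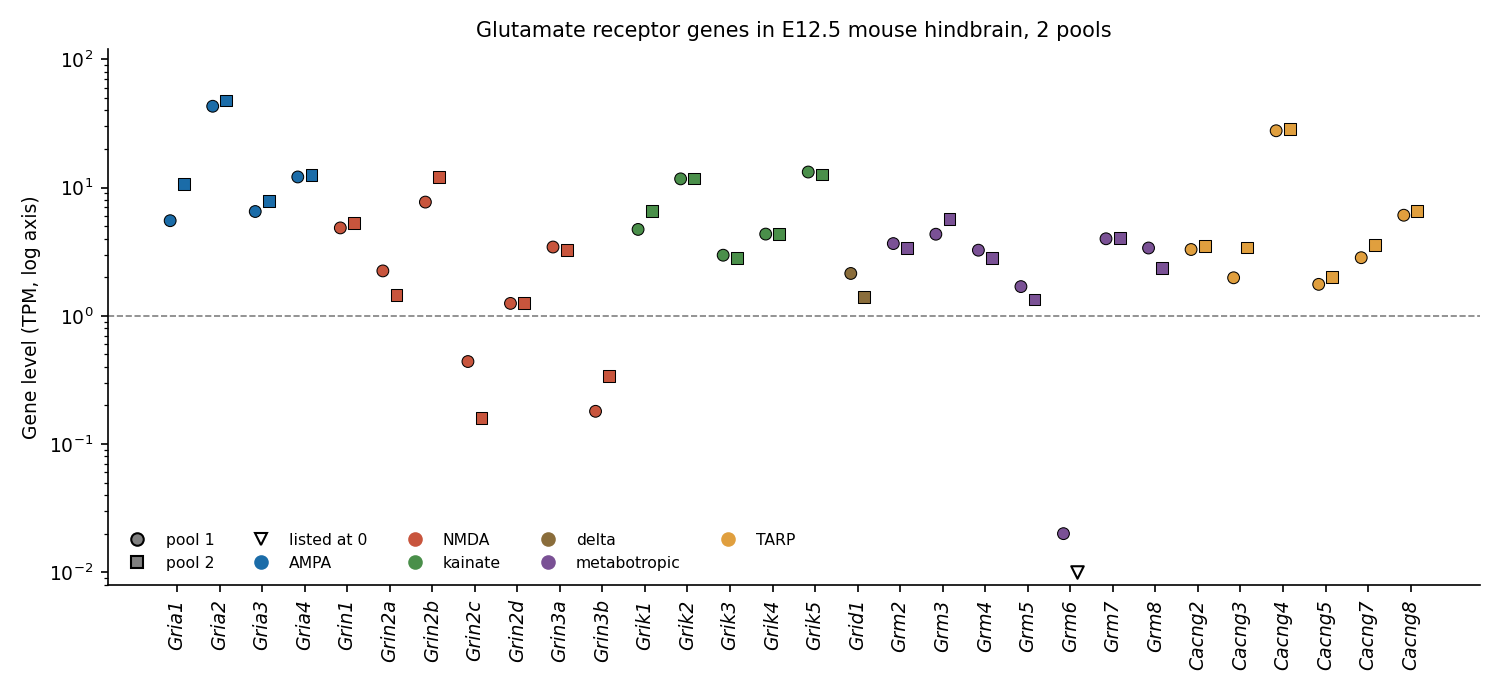
Level of each of the 30 genes in TPM on a log axis, with circles for pool 1 and squares for pool 2, coloured by receptor class; the dashed line marks 1 TPM and the open triangle a value listed at 0. Gria2 (43.1 and 47.9 TPM) and Cacng4 (27.8 and 28.7 TPM) stand above the rest, and Grin2c, Grin3b and Grm6 lie below the line.

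The value of a gene sums over all its annotated transcripts, which include short fragments, transcripts with a retained intron and transcripts marked for nonsense-mediated decay. A few reads on a short fragment give a high TPM. A stricter measure was therefore set beside the gene TPM: the summed TPM of protein-coding transcripts with an annotated start and stop whose coding sequence reached 80% of the longest of the gene, called near-full-length coding transcripts below. By this measure 25 of 30 members were at 1 TPM or more in both pools, against 59.2% of protein-coding genes, and the members lost were Grin2a and Grm5. The sum over the 30 members was 190.5 TPM in pool 1 and 210.0 TPM in pool 2 over all transcripts, and 119.1 and 119.3 TPM over near-full-length coding transcripts.

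Gria2 led the AMPA class. It encodes the subunit that, in its edited form, makes AMPA receptors nearly impermeable to calcium. Gria2 (chr3:80681450-80802835, minus strand) reached 43.1 TPM in the first pool and 47.9 TPM in the second, from 3554 and 3474 counts, and held 64.1% and 60.6% of the summed AMPA TPM. Gria4, a subunit of early and of fast synapses (chr9:4417896-4796234, minus strand), followed at 12.1 and 12.6 TPM. Gria1, whose trafficking is much studied in synaptic plasticity (chr11:57011387-57330244, plus strand), stood at 5.52 and 10.7 TPM. Gria3, the X-linked subunit (chrX:41400854-41678601, plus strand), stood at 6.51 and 7.85 TPM. Gria2 and Gria4 were separated from the next lower subunit in both pools, while Gria1 and Gria3 overlapped. In pool 2 the deposited intervals of Gria4 (11.1 to 13.1 TPM) and Gria1 (8.40 to 14.1 TPM) overlapped.

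In near-full-length coding transcripts Gria2 was at 17.0 and 16.2 TPM, Gria1 at 5.41 and 6.67 TPM, Gria3 at 4.03 and 5.23 TPM and Gria4 at 4.73 and 3.85 TPM. Gria2 kept the first place with 54.5% and 50.7% of the class, and Gria4 moved from the second place to the last, where it overlapped with Gria3. The ratio of Gria2 to the sum of the other AMPA subunits was 1.66 ± 0.175 over all transcripts and 1.11 ± 0.119 over near-full-length coding transcripts. What lay outside these transcripts differed by gene. In Gria2 it was mostly transcripts with a retained intron: Gria2-206, with 13 exons, held 35.2% and 33.3% of the gene's TPM, Gria2-204 held 12.6% and 12.8%, and the coding Gria2-202 held 32.7% and 28.3%. In Gria4 it was Gria4-203, a coding transcript of 11 exons with a coding sequence of 1299 bases against 2706 in the longest, at 61.0% and 69.3%, beside Gria4-202 at 29.1% and 24.5%. In Gria3 the full transcript Gria3-201 held 53.8% and 56.3%, the retained-intron transcripts Gria3-205 and Gria3-207 held 15.2% and 10.1%, and 7.83% and 15.5%, and Gria3-202 held 8.14% and 10.3%.

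Much of the difference in Gria1 TPM between the pools lay on a fragment, and the full transcripts together were also higher in pool 2 (5.41 and 6.67 TPM). Gria1-201 held 4.53 and 5.88 TPM and Gria1-202 held 0.88 and 0.79 TPM. Gria1-203, a fragment of 287 bases with an incomplete end, held 0 TPM in pool 1 and 4.03 TPM in pool 2, from 13.96 counts out of 681, which was 37.7% of the pool 2 level of the gene. The deposited intervals of this fragment, up to 1.35 TPM in pool 1 and from 1.62 to 7.09 TPM in pool 2, did not overlap. Its 287 bases hold 13 bases of coding sequence, so the level of Gria1 in near-full-length coding transcripts, above, does not include it.

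Each AMPA gene carries 2 neighbouring exons of 115 bases, flip and flop, of which a coding transcript usually holds 1. They encode alternative stretches of the extracellular domain beside the last membrane segment, and flip receptors close more slowly in glutamate. The exon pairs of Gria2 and Gria4 are shown because every reading of flip against flop rests on telling such similar exons apart: capitals mark the bases that differ between flip and flop, 36 of 115 in Gria2 and 31 of 115 in Gria4. Sequences are from GENCODE M21 transcripts (mm10), written 5′ to 3′ in the direction of the gene. In Gria1 36 bases and in Gria3 32 bases differed.
Gria2 flip, chr3:80690404-80690518, minus strand: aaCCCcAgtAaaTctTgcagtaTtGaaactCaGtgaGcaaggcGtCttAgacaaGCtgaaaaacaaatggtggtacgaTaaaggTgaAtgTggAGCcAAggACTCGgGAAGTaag
Gria2 flop, chr3:80691320-80691434, minus strand: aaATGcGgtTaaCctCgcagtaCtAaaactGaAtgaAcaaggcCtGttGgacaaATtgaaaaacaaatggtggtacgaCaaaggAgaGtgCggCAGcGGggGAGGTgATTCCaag
Gria4 flip, chr9:4427030-4427144, minus strand: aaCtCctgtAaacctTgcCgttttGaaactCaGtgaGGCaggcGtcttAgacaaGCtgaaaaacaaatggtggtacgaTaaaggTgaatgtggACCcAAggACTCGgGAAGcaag
Gria4 flop, chr9:4432773-4432887, minus strand: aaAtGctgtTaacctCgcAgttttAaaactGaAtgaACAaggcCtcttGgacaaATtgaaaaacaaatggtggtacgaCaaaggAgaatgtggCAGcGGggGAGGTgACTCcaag

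Transcripts with flip prevailed in all 4 AMPA genes and in both pools. Of the TPM on transcripts with either exon, flip held 83.7% and 88.2% in Gria1, 83.1% and 83.6% in Gria2, 86.8% and 84.5% in Gria3, and 74.6% and 80% in Gria4. The means were 85.9% ± 3.13, 83.4% ± 0.364, 85.7% ± 1.65 and 77.3% ± 3.80 (SD, n = 2). The shares of Gria1, Gria2 and Gria3 lay within 83.1% to 88.2%, and both Gria4 values were below them. Transcripts with both exons or with neither stayed out of these shares: in Gria2 they held 3.53 and 4.41 TPM, and 22.6 and 27.3 TPM, of the gene.

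The Gria2 share depends on how reads are divided by length. Its flop exon is annotated in Gria2-201, of 10371 bases, and its flip exon in Gria2-202, of 4026 bases, so the 2 transcripts differ in their ends as well as in this exon. By expected counts the flip share of Gria2 was 65.3% and 66.1%, and flip still held more than flop. In the other genes the share by counts was 84.1% and 88.4% (Gria1), 91.8% and 90.3% (Gria3), and 75.1% and 80.5% (Gria4). With the older M4 annotation Gria4 moved to 90.1% and 100%, and Gria2 was at 82.9% and 83.4%.

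**Figure D2:**
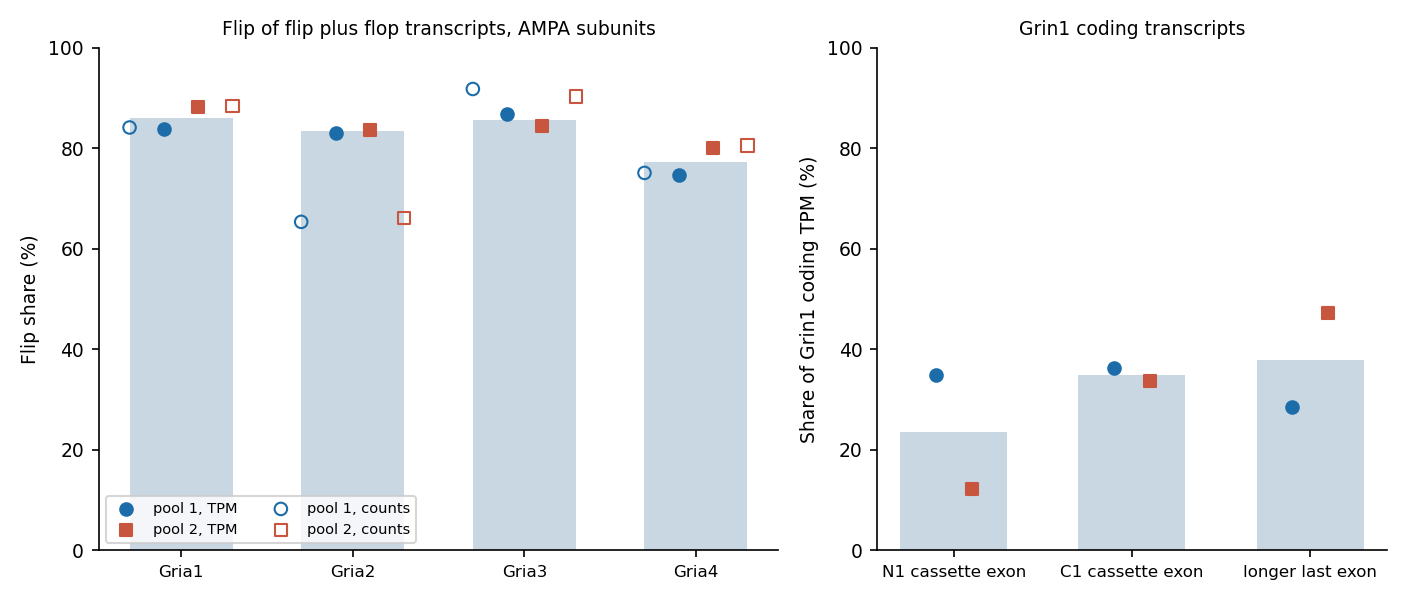
Left, flip share in percent of the transcripts with flip or flop for the 4 AMPA genes; bars are means of the 2 pools by TPM, filled points the pools by TPM and open points the pools by expected counts. Right, share in percent of Grin1 coding TPM on transcripts with each alternative part. Flip lies above 65% in all readings, and the Gria2 readings by counts lie lowest, at 65.3% and 66.1%.

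The pore loop of AMPA and kainate subunits holds a glutamine codon, the Q/R site, which the enzyme ADAR2 edits to arginine in Gria2, Grik1 and Grik2 transcripts. It is shown, in capitals, because the codon in the genome is nearly the same in edited and unedited genes: it was CAG in 8 of the 9 AMPA and kainate members and CAA in Gria4. For Grik1 to Grik3 the exon ended 4 bases after the codon.
Gria1, chr11:57243073-57243117, plus strand: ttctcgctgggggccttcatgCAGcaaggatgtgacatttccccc
Gria2, chr3:80706890-80706934, minus strand: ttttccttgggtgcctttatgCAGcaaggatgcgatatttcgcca
Gria4, chr9:4464116-4464160, minus strand: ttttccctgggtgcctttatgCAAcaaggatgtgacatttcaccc
Grik2, chr10:49244325-49244352, minus strand: tttggagttggagctctcatgCAGcaag

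The files give no base calls, so the share of edited RNA was not measured. They do give the transcripts that contain the codon. In Gria2 6 of 8 transcripts held it, with 41.1 and 42.7 TPM, and 3 of these held it in an annotated coding sequence, with 20.5 and 20.6 TPM. Of those 3, Gria2-203, marked for nonsense-mediated decay, held 3.53 and 4.41 TPM. In Gria4 the abundant short transcript lacked it, and 39.0% and 30.7% of the gene's TPM contained it. Adarb1, which encodes ADAR2, stood at 8.24 and 7.88 TPM, Adar at 18.2 and 18.5 TPM, and Adarb2, a relative with no known editing activity, at 20.4 and 17.1 TPM. In near-full-length coding transcripts they were at 2.87 and 3.14 TPM (Adarb1), 2.15 and 3.49 TPM (Adar), and 3.52 and 3.86 TPM (Adarb2). With M4 Adarb2 was at 10.0 and 9.15 TPM.

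The NMDA class summed to 20.1 and 23.8 TPM, and the summed AMPA level was 3.33 ± 0.0221 times that of NMDA. By gene TPM Grin2b was the highest subunit. Grin2b encodes the glutamate-binding subunit typical of embryonic receptors (chr6:135713233-136173511, minus strand) and stood at 7.71 and 12.0 TPM, 38.3% and 50.5% of the class. Grin1, the subunit that all conventional NMDA receptors require (chr2:25291181-25319187, minus strand), stood at 4.85 and 5.33 TPM. Grin3a, which lowers calcium entry and is known from young neurons, was at 3.44 and 3.26 TPM. Grin2a, the subunit that replaces much of Grin2b as circuits mature, was at 2.24 and 1.46 TPM, and Grin2d, a subunit of the early brainstem and midbrain, at 1.25 and 1.26 TPM. These 5 were separated from each other in both pools.

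Grin2c, known from the mature cerebellum, and Grin3b, known from motor neurons, were the lowest and overlapped with each other. Grin2c had 39 counts (95% Poisson interval 27.7 to 53.3) in pool 1 and 12 counts (6.20 to 20.96) in pool 2, 0.44 and 0.16 TPM. Grin3b had 7.60 and 13.9 counts, 0.18 and 0.34 TPM, and its exons overlap those of Tmem259, a protein-coding gene on the other strand at 19.7 and 17.7 TPM. The sources used here do not say if strand entered the counting, so the few Grin3b counts are uncertain. Grin2d likewise shares exons with the antisense RNA Gm45441, at 2.22 and 2.31 TPM.

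The first place of Grin2b held by gene TPM and by counts, with 30.4% and 34.0% of the counts of the class against 27.2% and 25.6% for Grin3a, but not in near-full-length coding TPM, and most of its gene TPM lay on short transcripts. With M4 Grin2b was below Grin1 in pool 1 (4.78 against 5.11 TPM) and above it in pool 2 (7.37 against 5.60 TPM). Grin2b-207, a non-coding transcript of 241 bases, had 11.5 and 16.1 counts of the gene's 489 and 506, and held 52.7% and 51.0% of its TPM. Grin2b-206, of 601 bases, held 0% and 20.1%, and Grin2b-204, of 703 bases, held 14.9% and 9.89%. The coding Grin2b-202, of 7484 bases, had 196 and 233 counts and held 17.3% and 14.2%. In near-full-length coding transcripts Grin2b was at 1.85 and 2.20 TPM, behind Grin1 at 3.48 and 4.25 TPM and Grin3a at 2.54 and 2.36 TPM, and Grin2d and Grin2a followed at 1.13 and 1.10 TPM, and 0.51 and 0.35 TPM. By counts, which are not scaled by length, near-full-length transcripts held 90.6% and 89.1% of Grin2b.

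The summed Grin2 subunits relative to Grin1 depended on the same fragments. The ratio was 2.40 and 2.80 over all transcripts and 1.13 and 0.896 over near-full-length coding transcripts. Grin2b exceeded Grin2a by either measure, 3.44 and 8.24 times over all transcripts and 3.63 and 6.29 times over near-full-length coding transcripts. In Grin2a the retained-intron transcripts Grin2a-203 and Grin2a-204 held 58.0% and 58.2%, and 13.8% and 17.1%, while the coding Grin2a-206, of 14634 bases, held 22.8% and 24.0% of TPM from 149 and 94.6 counts. Grin3a was mostly Grin3a-201 at 73.8% and 62.6%, with the non-coding Grin3a-203 at 0.86 and 0.82 TPM. Grin2d was mostly Grin2d-201 at 70.4% and 73.8%, with Grin2d-203 at 20.0% and 13.5%, and the short Grin2d-202 at 8.80% and 11.9%.

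Grin1 is spliced at a cassette near the start of the protein, N1, which speeds closing and changes the response to protons and polyamines, and at cassettes in the C-terminal tail, of which C1 carries a retention signal for the endoplasmic reticulum. The 2 cassette exons are shown because their use is read below. N1 has 63 bases and C1 has 111, so neither shifts the reading frame.
Grin1 N1, chr2:25311343-25311405, minus strand: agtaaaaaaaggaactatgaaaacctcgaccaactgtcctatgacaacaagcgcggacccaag
Grin1 C1, chr2:25294438-25294548, minus strand: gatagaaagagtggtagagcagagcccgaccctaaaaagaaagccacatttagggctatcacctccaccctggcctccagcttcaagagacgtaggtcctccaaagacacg

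Of the TPM on the 8 coding transcripts of Grin1, those with N1 held 34.8% in pool 1 and 12.2% in pool 2. Those with C1 held 36.2% and 33.6%, so by these estimates transcripts without C1 held more than those with it in both pools. The longer of the last exons, 1304 against 948 bases, was present in 28.4% and 47.3%. The C1 share was close in the pools (34.9% ± 1.81), while N1 (23.5% ± 15.9) and the last exon (37.9% ± 13.3) differed widely. The transcripts behind them were Grin1-205 at 28.9% and 31.0% of the gene, Grin1-201 at 17.9% and 25.5%, Grin1-207 at 16.9% and 9.76%, Grin1-202 at 0% and 12.2% and the non-coding Grin1-211 at 10.3% and 4.32%. With 312 and 336 counts over the whole gene, the deposited intervals of these transcripts overlapped between the pools, that of Grin1-205 running from 0.0348 to 1.70 TPM in pool 1 and from 0.285 to 2.08 TPM in pool 2. Within each pool the interval of Grin1-205, without C1, also overlapped that of Grin1-201, with C1. The latter ran from 4.01e-05 to 1.05 TPM in pool 1 and from 0.00499 to 1.45 TPM in pool 2. Which side of the C1 split held more is therefore uncertain, close as its share was in the pools.

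The kainate class was at 37.0 and 38.2 TPM, with every pair of neighbours separated in both pools. Grik5 and Grik4 encode subunits with high affinity for kainate that need a partner from Grik1 to Grik3 to form a channel. Grik5 (chr7:25009849-25072346, minus strand) was the highest by gene TPM, at 13.2 and 12.7 TPM, and Grik2 (chr10:49094833-49788766, minus strand) stood at 11.7 and 11.8 TPM. Grik1 (chr16:87895900-88290265, minus strand) was at 4.72 and 6.58 TPM, Grik4 at 4.34 and 4.36 TPM and Grik3 at 2.97 and 2.83 TPM. The partners Grik4 and Grik5 together reached 0.855 ± 0.0730 of the sum of Grik1, Grik2 and Grik3.

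In near-full-length coding transcripts Grik2 led, with 6.94 and 7.55 TPM, over Grik5 with 6.84 and 5.85 TPM. Grik4 (4.34 and 4.35 TPM), Grik1 (3.56 and 3.36 TPM) and Grik3 (2.97 and 2.83 TPM) followed, and the summed AMPA level was 1.30 ± 0.0510 times that of kainate by this measure, against 1.94 ± 0.174 over all transcripts. By counts Grik2 was also above Grik5 in both pools (814 and 792 against 747 and 664). With M4 Grik5 was above Grik2 in pool 1 (10.0 against 9.74 TPM) and below it in pool 2 (9.61 against 10.3 TPM). Grik5 was made up of the coding Grik5-201 at 51.7% and 46.2%, Grik5-202, marked for nonsense-mediated decay, at 15.2% and 17.9%, and the short retained-intron Grik5-203 at 12.1% and 16.5%. Grik2 was made up of Grik2-202 at 43.2% and 53.7%, the short coding Grik2-210 at 29.7% and 27.7% and Grik2-204 at 10.9% and 0%. Grik3 has 1 annotated transcript, Grik3-201, and Grik4 was divided between Grik4-201 and Grik4-202, with 79.7% and 79.6%, and 20.3% and 20.2%.

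The estimated transcript shares of Grik1 differed between the pools. Grik1-201 held 50.4% and 19.6%, Grik1-202, which has 1 more exon, 17.2% and 31.5%, and the retained-intron transcripts Grik1-207, Grik1-208 and Grik1-204 held 8.26% and 22.8%, 7.63% and 15.2%, and 5.72% and 10.8%. The deposited intervals of Grik1-201 (up to 2.79 TPM in pool 1 and up to 1.94 TPM in pool 2) and of Grik1-202 (0.102 to 1.62 and 0.608 to 2.97 TPM) overlapped between the pools, while those of Grik1-207 (0.133 to 0.752 and 0.867 to 1.97 TPM) did not. The rise of its gene TPM in pool 2 was in the retained-intron transcripts, since the near-full-length coding level was 3.56 TPM in pool 1 and 3.36 TPM in pool 2.

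Grid1 encodes the delta receptor GluD1, which resembles ionotropic subunits but acts as a synaptic organiser that binds cerebellins. Grid1 (chr14:34820108-35583379, plus strand) stood at 2.14 and 1.41 TPM, from 192 and 146 counts. Grid1-201 held 77.1% and 100%, and the non-coding Grid1-202 held 22.9% and 0%, from 7.17 and 0 counts. In near-full-length coding transcripts Grid1 was at 1.65 and 1.41 TPM. The cerebellins were higher: Cbln2 stood at 50.5 and 62.4 TPM and Cbln1 at 16.7 and 20.8 TPM.

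The 7 metabotropic receptors summed to 20.3 and 19.7 TPM and none reached 5 TPM in both pools. Grm5 is a group I receptor, which signals through Gq and phospholipase C, and the other 6 belong to groups II and III, which signal through Gi and Go. Of group II, Grm3, found in both neurons and glia (chr5:9485541-9725170, minus strand), was the highest at 4.33 and 5.67 TPM, and Grm2 was at 3.66 and 3.40 TPM. Of group III, Grm7, a receptor of the active zone (chr6:110645581-111567230, plus strand), was at 3.99 and 4.07 TPM, Grm4 at 3.25 and 2.82 TPM and Grm8 at 3.38 and 2.37 TPM. Grm5 was at 1.69 and 1.34 TPM. Grm6, the receptor of retinal ON bipolar cells, had 1 count in pool 1 and 0 in pool 2, which allows up to 0.0502 TPM in pool 2 (3 counts, counting error only), and the deposited interval there ran up to 0.199 TPM.

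Grm4 and Grm8 overlapped, and the other neighbours were separated in both pools. Group III exceeded group II by 1.33 and 1.02 times, and by 1.33 and 0.939 times in near-full-length coding transcripts, so the direction differed between the pools by the latter measure. Group II exceeded Grm5 by 4.73 and 6.77 times. Grm3 has 1 annotated transcript, Grm3-201, and led the class by near-full-length coding TPM too, with 30.8% and 40.4% of it. By that measure Grm7 (3.06 and 3.54 TPM) and Grm4 (3.00 and 1.70 TPM) came next. Grm8 (1.41 and 1.22 TPM) and Grm2 (1.30 and 1.21 TPM) followed and overlapped, above Grm5 (0.98 and 0.71 TPM). By counts Grm3 led in pool 2 only, with 255 and 308 against 277 and 198 for Grm4 and 274 and 270 for Grm7.

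The other metabotropic receptors were divided among transcripts. In Grm2 the shorter Grm2-203, with a coding sequence of 1782 bases against 2616, held 64.5% and 64.4% beside Grm2-201 at 35.5% and 35.6%. In Grm7 the transcripts Grm7-202 and Grm7-201, with coding sequences of 2745 and 2766 bases, held 44.1% and 40.8%, and 32.6% and 46.2%, and Grm7-204, marked for nonsense-mediated decay, held 14.8% and 13.0%. In Grm8 the short Grm8-204 held 52.7% and 44.3%, Grm8-202 held 23.4% and 51.5%, and Grm8-201 held 13.6% and 0%. In Grm4 Grm4-201 held 92.3% and 60.3%, and Grm4-206 held 2.15% and 30.9%. In Grm5 Grm5-202 held 44.4% and 53.0%, the retained-intron Grm5-206 held 23.7% and 47.0%, and Grm5-201 and Grm5-203 held 13.6% and 10.7% in pool 1 and 0% in pool 2.

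The 6 TARPs summed to 43.7 and 47.8 TPM, and Cacng4 held most of it. Cacng4 encodes TARP gamma-4, a type I TARP (chr11:107732357-107794557, minus strand). It stood at 27.8 and 28.7 TPM, from 1886 and 1756 counts, and held 63.5% and 60.1% of the class, or 73.8% and 74.8% in near-full-length coding transcripts. Its coding transcript Cacng4-201 held 100% and 97.4% of the gene. Cacng4 was above every other TARP and every receptor subunit except Gria2 in both pools. By near-full-length coding TPM it was above Gria2 as well (27.8 and 28.0 against 17.0 and 16.2 TPM). That measure leaves out 5 retained-intron transcripts and 1 marked for nonsense-mediated decay in Gria2, but only 1 non-coding transcript in Cacng4. By counts Gria2 was the higher of the pair (3554 and 3474 against 1886 and 1756).

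Cacng8 encodes gamma-8, the main TARP of the adult hippocampus (chr7:3390683-3415648, plus strand), and followed at 6.09 and 6.60 TPM. Of this, 71.6% and 83.0% lay on Cacng8-203, a transcript of 1 exon and 535 bases, from 38 and 44 counts, and the coding Cacng8-202 was at 1.73 and 1.12 TPM. Cacng2 encodes stargazin, or gamma-2, the TARP whose loss in stargazer mice removes AMPA receptors from cerebellar granule cells (chr15:77991748-78120028, minus strand). It was at 3.29 and 3.51 TPM, all on Cacng2-201, its only annotated transcript. Cacng3, or gamma-3, was at 1.98 and 3.41 TPM, with 29.8% and 62.8% on the short Cacng3-203 and 70.2% and 37.2% on the coding Cacng3-201.

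Of the type II TARPs, Cacng7 overlapped in level with the type I members Cacng2 and Cacng3, and Cacng5 with Cacng3. Cacng7, at chr7:3332955-3368221 on the plus strand near Cacng8, was at 2.84 and 3.56 TPM, with 41.2% and 57.3% on the retained-intron Cacng7-202 and 58.8% and 42.7% on Cacng7-201. Cacng5, at chr11:107874605-107915055 on the minus strand near Cacng4, was at 1.76 and 2.02 TPM. Cacng5-202 held 72.2% in pool 1 and 0% in pool 2 and Cacng5-201 held 27.3% and 100%, but the 2 transcripts have the same coding length of 825 bases and the deposited intervals of Cacng5-202, 0.0847 to 1.70 TPM and 0.000102 to 1.21 TPM, overlap. Type I exceeded type II TARPs by 8.04 ± 0.661 times, and by 9.78 ± 0.299 times in near-full-length coding transcripts. Cacng4 carried most of this: without it the ratios were 2.45 ± 0.0330 and 1.77 ± 0.147. By that near-full-length measure Cacng2 (3.29 and 3.51 TPM) was the second TARP, ahead of Cacng5, Cacng7, Cacng8 and Cacng3, and Cacng8 overlapped with both of its neighbours.

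The ratio of the TARP sum to the AMPA sum turned with the measure. It was 0.650 and 0.605 over all transcripts and 1.21 and 1.17 over near-full-length coding transcripts. The ratio of AMPA to NMDA was close by both measures, 3.33 ± 0.0221 and 3.07 ± 0.0589.

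Short and non-coding transcripts weighed on the members as on other genes. Of the 27 members at 1 TPM or more in both pools, 6 had under 50% of their TPM in near-full-length coding transcripts in both pools, against 19.3% of the protein-coding genes at that level: Gria2, Gria4, Grin2a, Grin2b, Grm2 and Cacng8. At the other end, Grik3, Grm3 and Cacng2 had all of it there, but each has only 1 annotated transcript, so this share was fixed by the annotation. The annotation also mattered: with M21 2 of the 27, Grin2b (1.62 times) and Cacng8 (4.23 times), were at 1.5 times or more of their level with the older M4, against 5.13% of protein-coding genes. For Cacng8 the M4 values, 1.82 and 1.18 TPM, were close to those of its near-full-length coding transcripts.

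**Figure D3:**
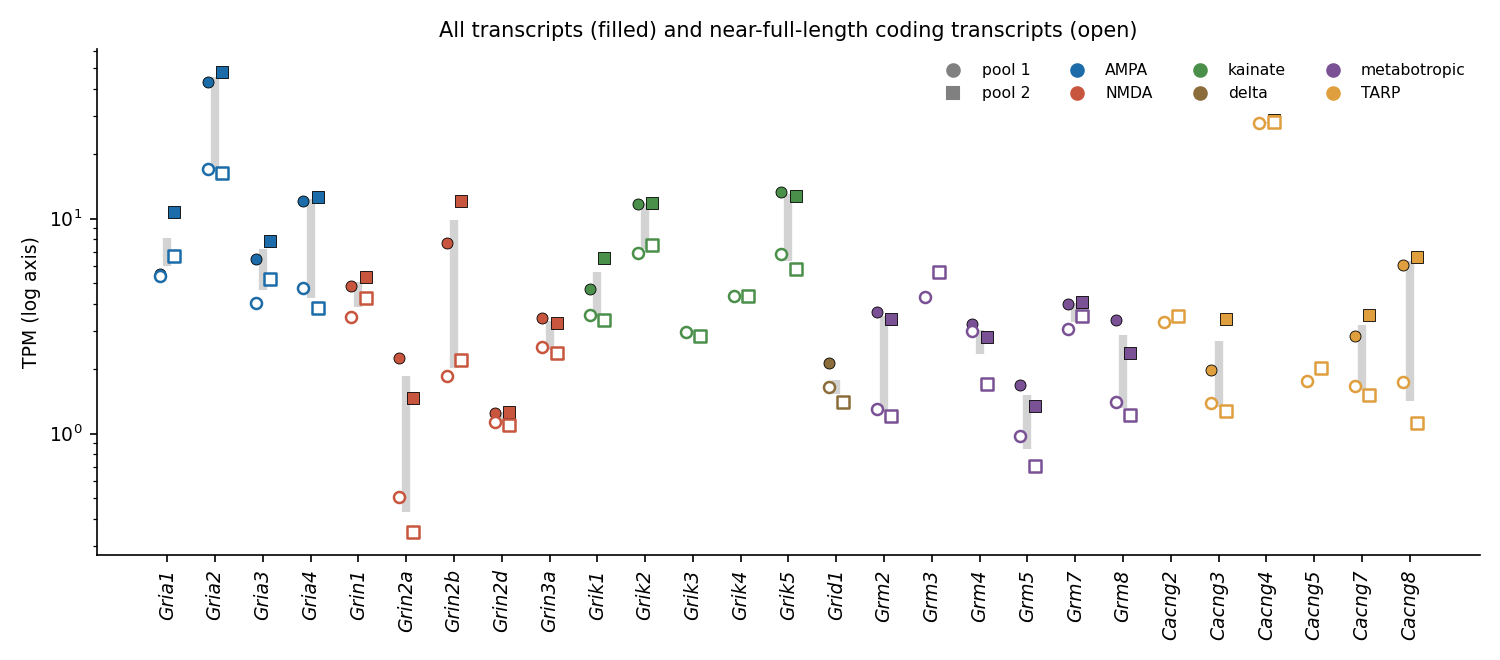
TPM on a log axis over all transcripts (filled) and over near-full-length coding transcripts (open) for the 27 members at 1 TPM or more in both pools, circles for pool 1 and squares for pool 2; grey bars join the means. The widest gaps are those of Grin2b (7.71 and 12.0 against 1.85 and 2.20 TPM), Grin2a and Cacng8, while Cacng4, Grm3 and Grik3 show nearly none. Grm3 and Grik3 have 1 annotated transcript each, so no gap was possible for them.

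**Figure D4:**
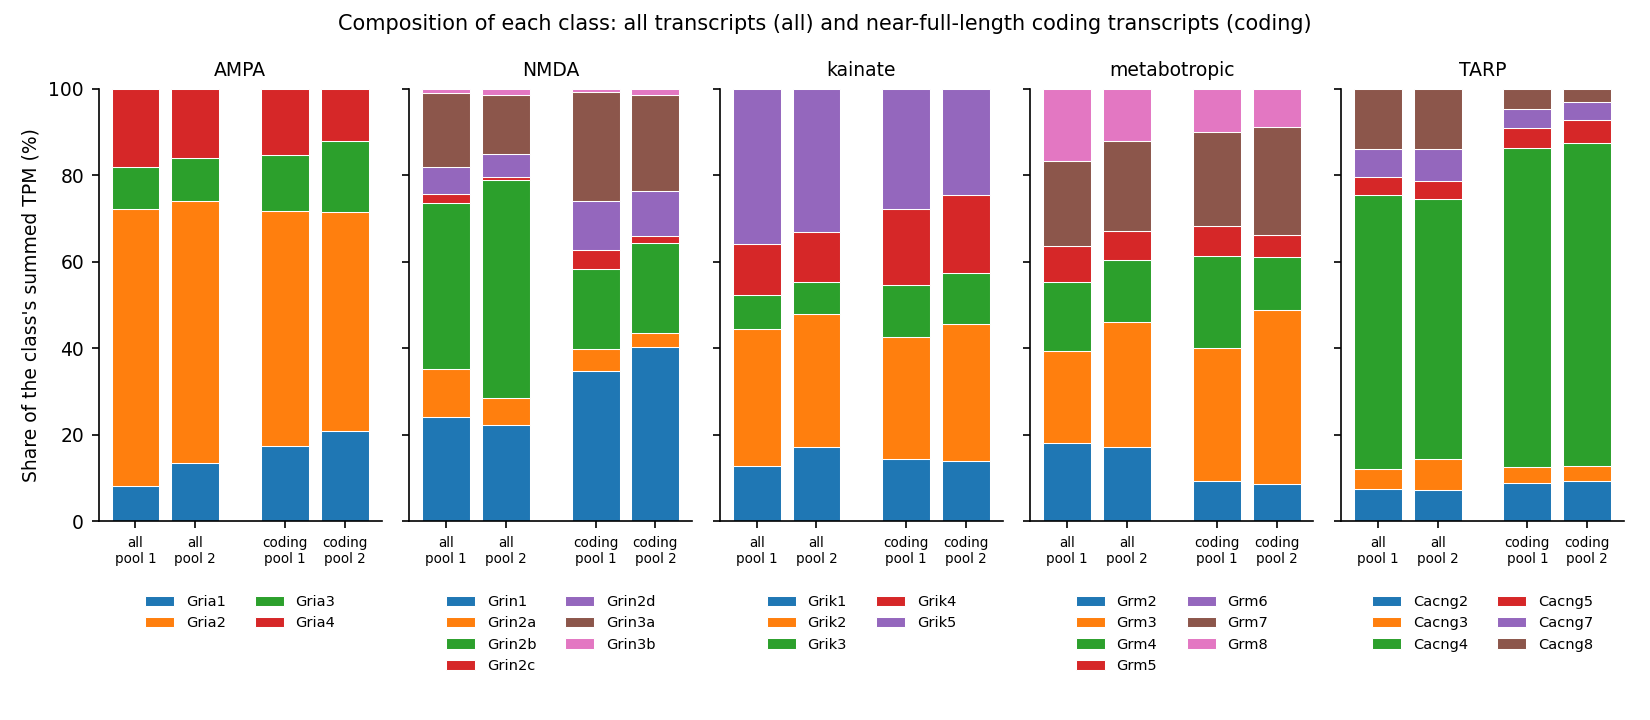
Share of each member in the summed TPM of its class, in percent, for all transcripts (all) and near-full-length coding transcripts (coding) in each pool. Gria2 and Cacng4 lead their classes by both measures, whereas Grin2b leads NMDA by all transcripts and Grin1 (34.8% and 40.2%) by near-full-length coding transcripts.

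The pools gave close levels for most members. Ratios between them used counts scaled by TMM, a factor that centres the ratios of most genes on 1, and are given on the log2 scale as pool 2 over pool 1 with a 95% interval for counting error alone. Among the 27 members whose counts averaged 50 or more over the pools, 0 were past a 2-fold difference, against 1.00% of all genes with such counts, and no test across the pools was made because they are replicates of 1 group. The median member differed by 0.14 in size, against 0.10 over all genes with 50 or more mean counts, and 14 were higher in pool 2 and 13 in pool 1.

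For 7 of these 27 members the counting interval did not include 0, against 35.0% of all genes with such counts. Grik1 (0.43, interval 0.21 to 0.65), Grm3 (0.38, 0.14 to 0.62), Gria3 (0.36, 0.19 to 0.52), Gria1 (0.32, 0.16 to 0.48) and Gria2 (0.07, 0.006 to 0.14) were higher in pool 2 by TMM scaling. The Gria2 bound is as small as the effect of scaling: with DESeq2 size factors the median ratio of the 27 members moved from 0.0037 to -0.0033. Scaling by spike-in totals changed the sign of 12 of the 27 ratios. Grin2a (-0.54, -0.87 to -0.21) and Grm4 (-0.38, -0.65 to -0.11) were higher in pool 1. The biological coefficient of variation between the pools over all genes, 0.0858 by edgeR, comes on top of these intervals. Neuron markers moved by 1.05 times, muscle markers by 4.98 times and epithelial markers by 0.733 times from pool 1 to pool 2, and their part in these ratios was not tested. Among members with fewer counts, Grin2c was lower in pool 2 by 1.56 on the log2 scale (-1.56), from 39 and 12 counts.

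**Figure D5:**
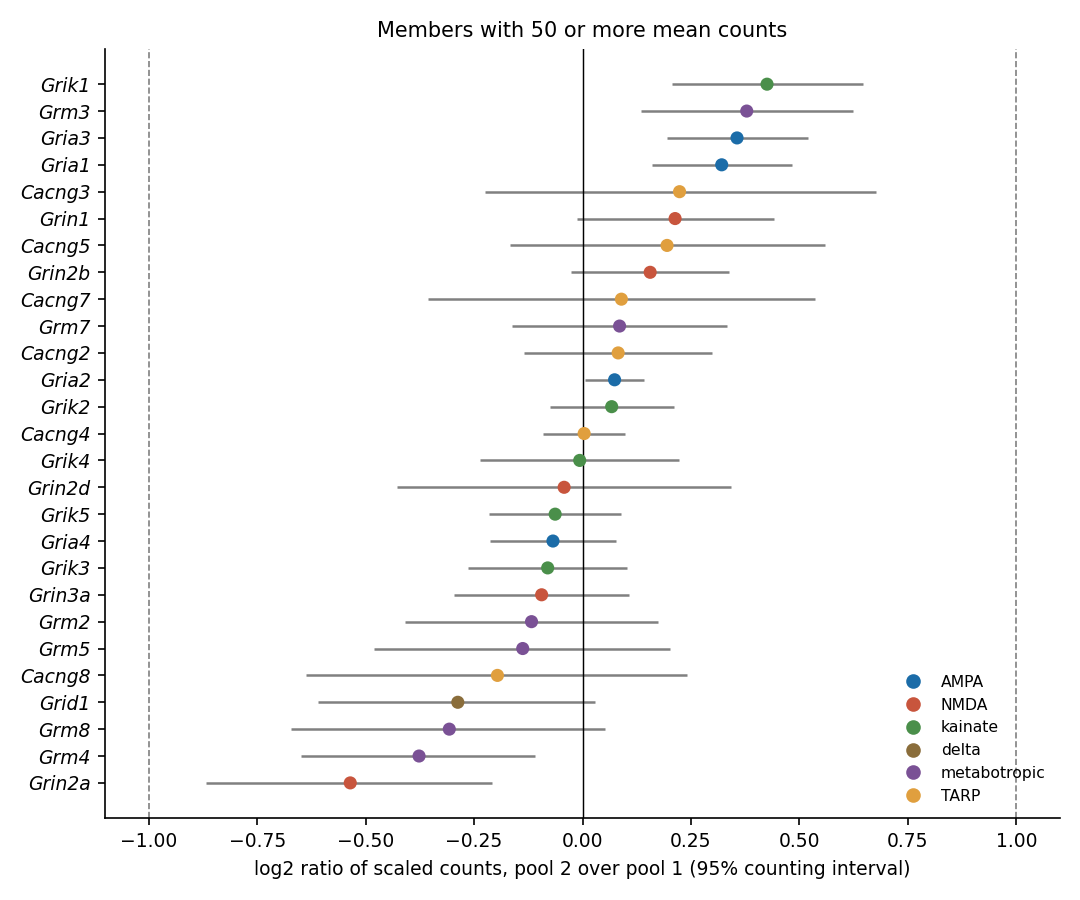
Log2 ratio of TMM-scaled counts, pool 2 over pool 1, for the 27 members with 50 or more mean counts, with 95% intervals for counting error; dashed lines mark 2-fold. Points run from -0.54 for Grin2a to 0.43 for Grik1, and none reaches the dashed lines.

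The genes around these receptors were mostly present. Of 84 genes in 9 lists of glutamate signalling, 76 were at 1 TPM or more in both pools, against 61.8% of all protein-coding genes, the share beside which each count below stands. Of 15 other auxiliary subunits 13 were, and the leading ones were far above the TARPs: Cnih2, a cornichon that escorts AMPA receptors out of the endoplasmic reticulum, stood at 167 and 164 TPM, Olfm1, or noelin, at 147 and 146 TPM, Nptn at 71.3 and 69.2 TPM and Olfm2 at 58.1 and 52.8 TPM. The 2 that did not pass in both were Neto1, an auxiliary subunit of kainate receptors, at 1.17 and 0.36 TPM, and Shisa6, a partner of AMPA receptors, at 2.08 and 0.71 TPM. Neto2, the relative of Neto1, was at 36.9 and 32.98 TPM. Nptn, which also has roles in cell adhesion, had 2.29 and 2.12 TPM in near-full-length coding transcripts.

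Of 9 genes of receptor trafficking and anchoring 8 passed 1 TPM in both pools, led by Sdcbp (252 and 256 TPM), the fusion ATPase gene Nsf (63.3 and 65.7 TPM), Gripap1 (56.2 and 60.8 TPM) and Pick1 (52.0 and 55.7 TPM). The guanine deaminase gene Gda was at 0.04 and 0.14 TPM. All 17 genes of the postsynaptic scaffold passed, led by Dlgap4 (156 and 165 TPM), Homer3 (62.5 and 62.3 TPM), Homer2 (26.9 and 22.5 TPM) and Dlg1 (21.6 and 20.7 TPM). Dlg4, which encodes PSD-95, was at 22.0 and 17.6 TPM. In near-full-length coding transcripts Dlgap4 was at 3.31 and 3.41 TPM, and Homer3, at 46.7 and 44.9 TPM, was above it. With the M4 annotation Homer2 was at 5.92 and 5.18 TPM.

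Of 10 genes of glutamate transport and metabolism 9 passed: the glutamine synthetase gene Glul stood at 97.9 and 97.0 TPM, the radial glial transporter gene Slc1a3 at 86.9 and 74.6 TPM, Glud1 at 75.6 and 84.3 TPM and Slc17a6, the vesicular transporter VGLUT2, at 32.2 and 36.9 TPM. Slc17a7, or VGLUT1, was below 1 TPM at 0.96 and 0.81 TPM. Of 8 genes for the NMDA co-agonists glycine and D-serine 7 passed, with the serine synthesis gene Phgdh (186 and 154 TPM), Shmt2 (51.9 and 51.8 TPM), Psph (28.2 and 27.1 TPM) and the serine racemase gene Srr (23.4 and 26.3 TPM) at the top. Dao, which breaks down D-serine, was at 0 counts in both pools, which allows up to 0.121 TPM in pool 1 (3 counts). All 3 genes of the editing enzymes passed.

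Of 10 extracellular organisers 9 passed: after Cbln2 and Cbln1 came the pentraxin genes Nptx1 (11.5 and 11.6 TPM) and Nptxr (10.2 and 10.0 TPM), and Cbln3 was below 1 TPM at 0.04 and 0.27 TPM. All 10 genes of metabotropic signalling passed, led by the G protein genes Gnai2 (411 and 396 TPM), Gnao1 (70.9 and 77.8 TPM), Gna11 (59.1 and 57.8 TPM) and Gnaq (38.2 and 41.8 TPM). The last list held Cacng1, the gamma subunit of the calcium channel of skeletal muscle, and its relative Cacng6, and neither passed. Cacng1 was at 0.39 and 1.46 TPM and Cacng6 at 0.21 and 1.11 TPM, a sum 4.28 times higher in pool 2, beside 4.98 times for the 6 muscle markers.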

How the data were processed

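RNA of the 2 pools was primed with oligo-dT and made into cDNA with a low-input kit, per the labels' protocols. Gene and transcript tables for GENCODE M21 (used throughout) and for M4 (an alternative) were deposited for each pool, both on mm10, per the read-me files. The sources used here name neither the program that quantified them nor its strand setting. Expected counts, as deposited by the authors, are estimates and need not be whole. The authors' TPM column sums to 1000000 over all entries, spike-ins included, and the authors' FPKM column is scaled by length and by library size, per the file headers. The deposited isoform percent is each transcript's share of its gene. The bounds around TPM were treated as a signal in TPM, as deposited, with no stated level. Spike-ins took 3.31% and 4.25% of counts and stayed out of all gene sums.

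Transcript shares were computed from TPM. Flip, flop, N1 and C1 exons were read from M21 transcripts. Expected counts were rounded for edgeR 4.0.16 (TMM, common dispersion with an intercept only, 18575 genes) and pool ratios used a prior count of 0.5. Count intervals are exact Poisson, ratio intervals exact binomial (Clopper-Pearson), and both cover counting error only, since no molecular identifiers are mentioned. The ratio step was tested on simulated data. DESeq2 1.42.0, in R 4.3.3, gave alternative size factors. Values were computed in Python 3.11.15 with pandas 2.3.3 and numpy 2.4.6, intervals came from scipy 1.17.1, and plots were drawn with matplotlib 3.10.9. The alternatives were M4, each pool alone, FPKM, counts, other TPM thresholds and other scalings. The members and lists were chosen with earlier results of these data known, and the near-full-length measure after seeing the data. Named are all members, the 4 highest and up to 3 genes under 1 TPM of each pathway list, the 2 highest of each cell type list, and transcripts with 10% or more of a member at 1 TPM or more in both pools. Some genes that this rule covers are not reported here. Other genes are named where a statement turns on them, after their values were seen.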

Additional observations from a re-analysis of the deposited data

How the results depend on the processing

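No paired analysis was possible because the series holds 1 group and no 2 groups share replicate numbers. The count of 27 members at 1 TPM or more in both pools stayed at 27 at 0.5 TPM, with M4 and in each pool alone. It was 25 in near-full-length coding transcripts (coding sequence of 50%, 80% or 90% of the longest), and fell to 9 at 5 TPM. The share of all protein-coding genes at 0.5 TPM or at 5 TPM was not computed. No member differed 2-fold between the pools under any scaling or with M4. Without the filter on counts 2 did, Grin2c and Grm6, the latter from 1 and 0 counts. Scaling by spike-in totals moved the median of all genes by -0.37 on the log2 scale, and 25 of 27 members were then higher in pool 1. Mean class shares moved as follows. Gria2 went from 62.4% to 52.6% in near-full-length coding transcripts at each of the 3 limits (60.6% to 64.1% with 1 pool left out). Grin2b went from 44.4% to 32.2% by counts, 31.8% with M4 and 19.7% in near-full-length coding transcripts (38.3% to 50.5%). Grik5 went from 34.5% to 26.4% by counts, 30.7% with M4 and 26.1% in near-full-length coding transcripts (33.1% to 35.8%). Grm3 went from 25.1% to 35.6% at limits of 80% and 90% (21.3% to 28.8%). Cacng4 went from 61.8% to 70.9% by counts, 71.1% with M4 and 74.3% in near-full-length coding transcripts (60.1% to 63.5%). The flip share of Gria2 went from 83.4% to 65.7% by counts (83.1% to 83.6%). TPM rescaled without spike-ins raised every member at 1 TPM or more by 1.10 to 1.11 times. Of the pathway genes, 78 passed 0.5 TPM and 58 passed 5 TPM. With 12 to 39 counts on a gene or a fragment, as in Grin2c, Gria1-203 and Grin2b-207, counting error limits any level or share.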
